A study of Mus musculus with 15 samples.

Results

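The cytochrome P450 genes of families 2, 3 and 4 were examined in the ileum of mice that had been dosed with grape proanthocyanidins (PAC), polyphenol polymers of the plant, or with water. All genes whose symbol was Cyp2, Cyp3 or Cyp4 followed by a subfamily letter and a number were taken, and those with a mean of at least 0.1 FPKM over the 15 mice were kept as members. FPKM is the number of fragments of a gene per kilobase of its length and relative to the mapped fragments of its library, so that levels of different genes can be set side by side. The rule used only the mean over all mice and not the treatment. It gave 35 members among the 55 matching symbols and the 17752 genes listed in any mouse, namely 19 of family 2, 5 of family 3 and 11 of family 4, in 15 subfamilies. The least abundant members were Cyp2c67 (0.118 FPKM) and Cyp2d10 (0.124 FPKM), and the first gene left out was Cyp4x1 (0.0533 FPKM).

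The mice were female C57BL/6 animals (C57BL/6JOlaHsd in the methods of the study), 8 weeks old according to the labels, in 3 groups of 5. The first group received water, and the other groups received PAC purified from grape at 200 mg/kg, by gavage every 2 days for 10 days. The labels call the PAC groups low molecular weight PAC (here low PAC) and high molecular weight PAC (here high PAC), and in the methods of the study the larger fraction is the one of medium mean degree of polymerization. All mice ate the same purified diet. A piece of ileum of each mouse gave 1 library of total RNA, so a replicate is 1 animal. A piece of whole tissue holds epithelium, muscle, fat and lymphoid cells in shares that can vary, and fewer cells of a type cannot be told apart from less RNA per cell.

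Cytochromes P450 are heme enzymes of the endoplasmic reticulum that insert 1 oxygen atom into their substrate with electrons passed on by the reductase Por and by cytochrome b5. Members of families 2 and 3 oxidize drugs, food compounds and steroids, and several of family 2 also form epoxides of arachidonic acid. Members of family 4 hydroxylate fatty acids and eicosanoids at or near the end of the chain. In the gut these enzymes sit mostly in enterocytes, and genes of the Cyp2b, Cyp2c and Cyp3a subfamilies are classic targets of the xenobiotic receptors PXR (Nr1i2) and CAR (Nr1i3), whereas Cyp4a genes are classic targets of the fatty acid receptor PPARα.

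Expected counts summed to between 15963086 and 17903886 per mouse, and 30 of the 35 members passed edgeR's filter on low counts and were tested among 14386 genes. All comparisons are from edgeR's quasi-likelihood test in 1 model of the 15 mice. A log2 fold change is given with its standard error (SE), the unadjusted p and the p adjusted by the method of Benjamini and Hochberg over the 14386 genes. For members given in full, a two-sided exact permutation test of mean log2(FPKM + 0.1) was added (10 mice, every split enumerated), with a smallest possible p of 0.0079. High PAC replicate 3 stood apart from the other mice, with 27.8% of all tested genes at their highest FPKM and 15.8% at their lowest FPKM in this 1 mouse. The FPKM of all genes summed to 677075 in it and to 502110 to 573980 in the other mice. FPKM were used without rescaling in the permutation tests, the limma tests and the counts of overlap. Of the 30 tested members, 9 were lowest in high PAC replicate 3 and another 9 in low PAC replicate 2, where 7.11% of all tested genes were lowest. Counts led with below were therefore also computed without both mice, a choice made after seeing the data.

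The level of the members spanned more than 3 orders of magnitude. Cyp4f14, an ω-hydroxylase of leukotriene B4, was the most abundant with a mean of 492 FPKM over the 15 mice and ranked 150 of the 17752 genes. Cyp3a13 (165 FPKM) and Cyp4v3 (116 FPKM), the mouse counterpart of the human fatty acid hydroxylase gene CYP4V2, came next, and these 3 genes held 56.7% of the FPKM of all members. Levels of at least 10 FPKM were found for 17 members, which besides these 3 were Cyp2d26 (85.5), Cyp4f16 (78.8), Cyp4f40 (64.6), Cyp2c65 (49.7), Cyp3a25 (44.8), Cyp4b1 (42.1), Cyp2s1 (38.8), Cyp2j6 (37.1), Cyp2c68 (36.3), Cyp4f13 (28.9), Cyp2c55 (21.7), Cyp3a11 (17.1), Cyp2e1 (12.7) and Cyp2d22 (10.1). Cyp2u1 followed at 9.04 FPKM. The other 17 members lay under 3 FPKM and included Cyp4f18, Cyp2j9, Cyp2b10, Cyp2w1, Cyp2c23, Cyp4f17, Cyp3a44, Cyp2c66, Cyp2r1, Cyp4a10, Cyp2f2 and Cyp4f39, as well as the 5 untested members Cyp3a59, Cyp2d40, Cyp4f15, Cyp2d10 and Cyp2c67, whose means were 0.118 to 0.263 FPKM. By subfamily, Cyp4f held 49.0% of the summed FPKM with 8 members, Cyp3a 16.7% with 5, Cyp4v 8.51% with 1, Cyp2c 8.03% with 6 and Cyp2d 7.03% with 4, and the other 10 subfamilies had 1 or 2 members each.

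**Figure D1:**
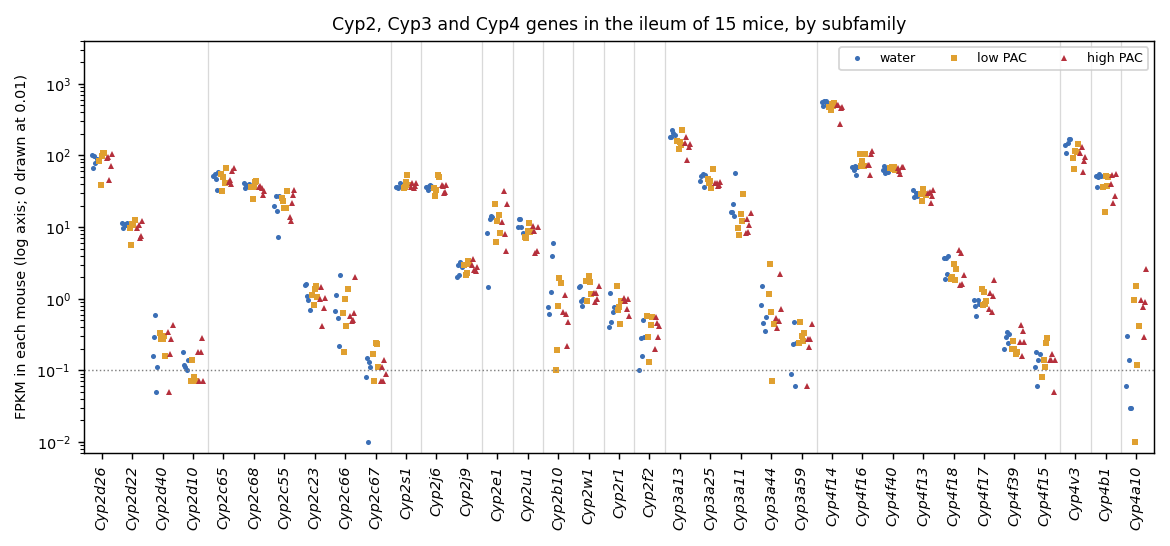
FPKM of each of the 35 members in each of the 15 mice on a log axis, ordered by family and subfamily (vertical lines part subfamilies, the dotted line marks 0.1 FPKM, and values of 0 are drawn at 0.01). Cyp4f14 is highest at 278 to 571 FPKM, and the highest mouse has 59.8 times the lowest for Cyp2b10 and 21.5 times for Cyp2e1.

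Among the water mice the abundant members were the most even. The coefficient of variation over 5 water mice was 6.1% for Cyp2c68, 6.2% for Cyp2s1, 6.6% for Cyp2j6, 6.7% for Cyp2d22 and 6.9% for Cyp4f14. The most uneven tested members were Cyp4a10 (102%), Cyp2b10 (94.4%), Cyp2c66 (78.9%), Cyp3a11 (72.7%), Cyp3a44 (63.4%), Cyp2f2 (58.7%) and Cyp2e1 (53.7%). Except for Cyp3a11 and Cyp2e1, these uneven members lay under 3 FPKM.

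Many members have near copies in the genome, which bears on how firmly reads can be assigned. In GENCODE vM21 transcripts, 12 of the 35 members had another gene with at least 90% identity over at least 50% of the transcript. The pairs included Cyp2c65 and Cyp2c66 (96.4% identity over 1613 bases), Cyp3a25 and Cyp3a59 (97.0% over 1991 bases), Cyp2c68 and Cyp2c40 (98.0% over 1724 bases), Cyp4f16 and Cyp4f37 (96.1% over 1607 bases), Cyp3a11 and Cyp3a41a (94.7% over 2033 bases), and Cyp4a10 and Cyp4a31 (96.1% over 1593 bases). Counts of these genes are uncertain to the extent that reads were shared between copies. Cyp3a13 (77.8% to its closest gene), Cyp4f14 (82.5%), Cyp2b10 (86.6%), Cyp2s1, Cyp2w1, Cyp2r1, Cyp2f2 and Cyp2c23 had no copy past that limit.

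The 3 comparisons gave few differences beyond the spread between mice. With high PAC, 0 of the 30 tested members had an adjusted p under 0.05 against water, as did 0.0139% of all genes tested (2 of 14386), and the smallest adjusted p of a member was 0.193 (edgeR). At the unadjusted threshold of 0.05 there were 9 of the 30 members, beside 14.8% of all genes tested. In the direction of lower values with high PAC there were 8 of the 30 (26.7%), which were Cyp3a13, Cyp4v3, Cyp3a11, Cyp2b10, Cyp4f14, Cyp2u1, Cyp3a25 and Cyp2c68, beside 10.4% of all genes tested. In the direction of higher values there was 1 (3.33%), Cyp4a10, beside 4.37% of all genes tested. The median log2 fold change was -0.14 over the 30 members and 0.00 over all genes, and 21 of the 30 members were below 0, beside 49.5% of all genes. The median of the members was -0.07 after upper-quartile normalization, 0.01 in the limma test of FPKM and close to 0 (-0.0008) without high PAC replicate 3. The scaling moved this background: of all genes with an unadjusted p under 0.05, 29.5% were higher with high PAC after TMM normalization, 64.8% after upper-quartile normalization and 81.0% in the limma test of FPKM, while 6 of 7 members with such a p were lower after upper-quartile normalization and 5 of 6 in the limma test. These 7 and 6 of 30 members stand beside 16.1% and 18.9% of all genes with such a p in the same tests. DESeq2 was the 1 method that gave a member an adjusted p under 0.05, Cyp4a10, and it called 112 genes in all. Without high PAC replicate 3 and low PAC replicate 2, 8 members had an unadjusted p under 0.05, 6 lower and 2 higher, and the median over the members was -0.02. In that model 10.8% of all genes had such a p, and 45.9% of these were higher.

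In the 30 tested members, the values of the high PAC and water groups overlapped in every case, beside 4.64% of all genes in which they did not. The same held for low PAC and water, beside 0.605% of all genes, and for high and low PAC, beside 0.737%. For Cyp3a13 and Cyp3a11 4 of the 5 high PAC mice lay below the range of the water mice, and for Cyp4a10 and Cyp4f16 4 lay above it, with the last Cyp4f16 mouse below it. For Cyp2d22 3 lay below and 1 above, and for Cyp4f18 2 lay below and 2 above.

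**Figure D2:**
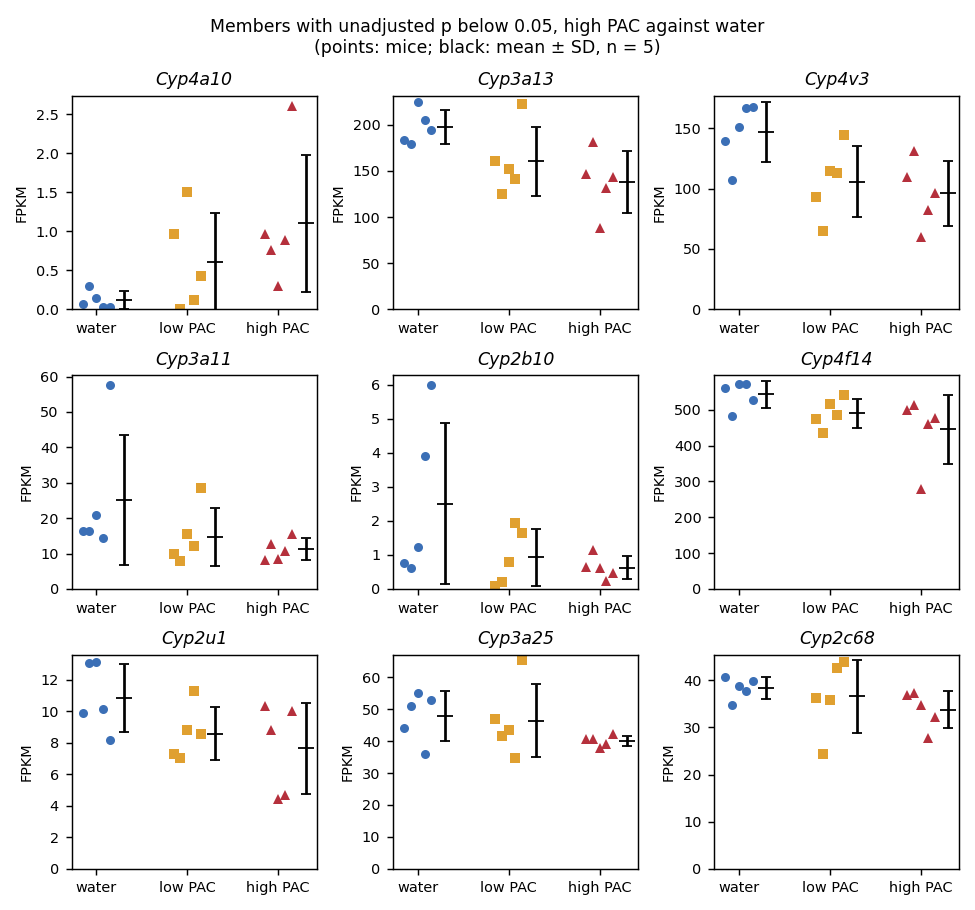
FPKM of the 9 members with an unadjusted p under 0.05 in high PAC against water, in each mouse (coloured points) with mean ± SD of 5 mice (black, lower ends under 0 not drawn). Groups overlap in all 9, and 8 have a lower mean with high PAC than with water, with Cyp4a10 the exception.

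The Cyp3a subfamily, whose best known enzyme Cyp3a11 is the mouse counterpart of the human drug-oxidizing CYP3A4, gave 3 of the 9 members. Its summed FPKM was 271 ± 30.02 with water, 223 ± 55.8 with low PAC and 191 ± 36.6 with high PAC (mean ± SD, n = 5). All 5 members lie on chromosome 5, with Cyp3a13 about 8 Mb from the cluster that holds Cyp3a44, Cyp3a11, Cyp3a25 and Cyp3a59. The 250 bases before the start of Cyp3a11 and Cyp3a25 (RefSeq, GRCm38.p6) are shown because core sites of nuclear receptors, AGGTCA on either strand, were found in them, and those of the Cyp2c members Cyp2c65 and Cyp2c68 because, like Cyp3a11, they hold CAAAGTCCA, a core bound by HNF4 proteins. The window of Cyp2b10, the classic CAR target, is shown as one that holds neither. Capitals mark AGGTCA, CAAAGTCCA and TATAAA or their reverse complements, and each sequence runs 5′ to 3′ along the gene's own strand.
Cyp3a11 (chr5:145879855-145880104, minus strand): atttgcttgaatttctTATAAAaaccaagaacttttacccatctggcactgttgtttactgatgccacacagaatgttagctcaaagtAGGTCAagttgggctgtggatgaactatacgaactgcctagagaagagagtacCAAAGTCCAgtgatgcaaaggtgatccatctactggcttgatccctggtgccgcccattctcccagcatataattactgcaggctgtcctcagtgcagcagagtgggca
Cyp3a25 (chr5:146009619-146009868, minus strand): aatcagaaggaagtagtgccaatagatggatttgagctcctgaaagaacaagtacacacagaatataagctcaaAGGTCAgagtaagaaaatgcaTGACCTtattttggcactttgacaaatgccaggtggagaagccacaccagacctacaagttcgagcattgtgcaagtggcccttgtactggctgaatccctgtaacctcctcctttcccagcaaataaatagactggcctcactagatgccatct
Cyp2c65 (chr19:39060756-39061005, plus strand): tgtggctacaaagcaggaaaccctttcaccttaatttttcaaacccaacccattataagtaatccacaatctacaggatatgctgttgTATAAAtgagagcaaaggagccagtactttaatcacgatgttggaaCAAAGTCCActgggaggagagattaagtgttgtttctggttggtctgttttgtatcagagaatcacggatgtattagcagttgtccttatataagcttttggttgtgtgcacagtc
Cyp2c68 (chr19:39741102-39741351, minus strand): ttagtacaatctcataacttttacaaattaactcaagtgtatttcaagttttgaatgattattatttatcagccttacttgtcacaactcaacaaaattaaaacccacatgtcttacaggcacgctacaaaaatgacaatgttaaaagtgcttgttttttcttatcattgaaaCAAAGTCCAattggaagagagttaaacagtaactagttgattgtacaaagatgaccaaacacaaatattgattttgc
Cyp2b10 (chr7:25897408-25897657, plus strand): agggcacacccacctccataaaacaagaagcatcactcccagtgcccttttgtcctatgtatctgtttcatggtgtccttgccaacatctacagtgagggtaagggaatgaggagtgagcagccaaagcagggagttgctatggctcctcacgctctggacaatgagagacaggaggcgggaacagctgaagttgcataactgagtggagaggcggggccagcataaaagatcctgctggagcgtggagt
The last 26 bases of the Cyp3a25 window lie inside the gene as RefSeq bounds it.

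Windows were at hand for 30 of the 35 members and for 32851 promoters in all, and a match of letters describes the window and no binding. In 13 of these 30 members the window ended right at the gene start as RefSeq bounds it, and in the others it was offset from that start. AGGTCA stood in the windows of 5 members (16.7%), which were Cyp3a11, Cyp3a25, Cyp3a44, Cyp3a59 and Cyp2f2, beside 14.0% of all windows. In Cyp3a25 it stood on both strands, at -176 and at -155 when counted back from the last base of the 250, as all positions here are, and in Cyp3a59, its near copy, at -177 and -156. CAAAGTCCA stood in 4 members (13.3%), which were Cyp3a11 at -109, Cyp2c65 at -116, Cyp2c67 at -125 and Cyp2c68 at -77, beside 0.384% of all windows, and 3 of these 4 are copies within 1 subfamily. Direct repeats of AGGTCA spaced by 1, 3 or 4 bases were found in 0 of the 30 windows and in 11, 2 and 5 of all windows. TATAAA stood in 10 of the 30 windows (33.3%) beside 12.4% of all, AGATAA, the core of GATA factor sites, in 5 (16.7%) beside 9.99%, and GTTAAT, a part of HNF1 sites, in 3 beside 6.43%. No window was at hand for Cyp2c23, Cyp2d22, Cyp2u1, Cyp4a10 and Cyp4f17.

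Cyp3a13 (chr5:137892933-137925610, minus strand), a Cyp3a enzyme of the intestinal epithelium, had 183, 179, 225, 206 and 194 FPKM in water replicates 1 to 5, 161, 124, 152, 141 and 223 in low PAC replicates 1 to 5 and 147, 182, 87.8, 132 and 143 in high PAC replicates 1 to 5. With high PAC, 4 of 5 values were under the water minimum, as were 4 of 5 with low PAC. The log2 fold change was -0.61 ± 0.17 (SE) with high PAC (unadjusted p = 0.00291, adjusted p = 0.193 from edgeR, exact permutation p = 0.0159) and -0.36 ± 0.17 with low PAC (unadjusted p = 0.0532, adjusted p = 0.976, exact permutation p = 0.0714). Without high PAC replicate 3 the first value was -0.44 (unadjusted p = 0.00778).

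Cyp3a11 (chr5:145854607-145879854, minus strand), the classic PXR target, had 16.4, 16.5, 20.98, 14.4 and 57.8 FPKM with water, 9.76, 7.83, 15.4, 12.2 and 28.5 with low PAC and 8.23, 12.8, 8.59, 10.7 and 15.7 with high PAC. Water replicate 5 was far above every other mouse, and 4 of the 5 high PAC values were under the water minimum. Against water, its log2 fold change was -1.25 ± 0.39 with high PAC (unadjusted p = 0.00569, adjusted p = 0.215 from edgeR, exact permutation p = 0.0159), and without water replicate 5 it was -0.72 (unadjusted p = 0.0315). With low PAC it was -0.81 ± 0.38 (unadjusted p = 0.0505), where 3 of 5 mice lay below the water range.

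Cyp3a25 (chr5:145977192-146009644, minus strand) had 44.1, 50.9, 55.2, 35.9 and 52.9 FPKM with water, 46.9, 41.7, 43.5, 34.6 and 65.4 with low PAC and 40.7, 40.7, 37.7, 39.04 and 42.1 with high PAC. The high PAC mice were close together and all 5 lay within the water range. The exact permutation p was 0.103 where edgeR gave an unadjusted p of 0.0233 for a log2 fold change of -0.35 ± 0.14. That p was 0.0764 without high PAC replicate 3, 0.068 without water replicate 3, 0.056 after upper-quartile normalization and 0.112 in the limma test of FPKM. The last tested Cyp3a member, Cyp3a44, ranged from 0.07 to 3.01 FPKM and had log2 fold changes of 0.15 ± 0.70 with high PAC and 0.50 ± 0.69 with low PAC (unadjusted p = 0.83 and 0.476). Cyp3a59 ranged from 0.06 to 0.48 FPKM and was not tested.

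In family 4, Cyp4f14 (chr17:32903357-32917376, minus strand) had 560.3, 484, 571, 571 and 528 FPKM with water, 473, 434, 516, 485 and 540.1 with low PAC and 499, 512, 278, 459 and 476 with high PAC. High PAC replicate 3 was far below all other mice, and 3 of the 5 high PAC mice lay below the water range. The log2 fold change of Cyp4f14 was -0.39 ± 0.14 with high PAC (unadjusted p = 0.0145, adjusted p = 0.262 from edgeR, exact permutation p = 0.0317), -0.22 without high PAC replicate 3 (unadjusted p = 0.0113), and -0.21 ± 0.14 with low PAC (unadjusted p = 0.152).

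Cyp4f16 (chr17:32536545-32551798), in the same chromosome 17 cluster as Cyp4f14, had 68.6, 62.4, 71.2, 52.99 and 68.8 FPKM with water, 106, 71.2, 82.7, 72.1 and 106 with low PAC and 74.02, 74.1, 52.9, 106 and 114 with high PAC. In each PAC group 4 of 5 mice lay above the highest water mouse, while high PAC replicate 3 lay below the lowest. The log2 fold changes were 0.38 ± 0.18 with low PAC (unadjusted p = 0.0573, adjusted p = 0.976 from edgeR, exact permutation p = 0.0159) and 0.28 ± 0.18 with high PAC (unadjusted p = 0.142, exact permutation p = 0.175).

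Cyp4f40 was the most even member over the 15 mice, with a highest value only 1.27 times the lowest. Its FPKM was 63.2, 71.05, 57.3, 65.4 and 58.9 with water, 66.5, 68.3, 64.3, 69.5 and 62.6 with low PAC and 66.6, 60.1, 55.99, 69.3 and 69.7 with high PAC. The log2 fold changes were -0.07 ± 0.08 with high PAC (95% interval -0.24 to 0.10) and 0.02 ± 0.08 with low PAC (-0.15 to 0.18). Cyp4f13 had 33.01, 26.3, 30.2, 27 and 29.8 FPKM with water, 29.4, 23.3, 34.5, 29.2 and 27.6 with low PAC and 29.8, 30.98, 21.6, 27.5 and 33.5 with high PAC, with overlapping groups and log2 fold changes of -0.13 ± 0.12 and -0.08 ± 0.12. The low members were Cyp4f18, a leukotriene B4 hydroxylase of neutrophils (1.58 to 4.83 FPKM), Cyp4f17 (0.57 to 1.82 FPKM), Cyp4f39, known for its part in the lipids of the skin barrier, and Cyp4f15 (0.05 to 0.28 FPKM, not tested). Cyp4f39 had 0.2, 0.29, 0.34, 0.24 and 0.32 FPKM with water, 0.2, 0.26, 0.2, 0.17 and 0.18 with low PAC and 0.25, 0.43, 0.16, 0.35 and 0.25 with high PAC, and its log2 fold changes were -0.49 ± 0.28 with low PAC (unadjusted p = 0.101) and -0.03 ± 0.27 with high PAC (unadjusted p = 0.903).

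Cyp4v3 (chr8:45305801-45333163, minus strand) was lower than with water in both PAC groups. It had 139.9, 107, 151, 167 and 168 FPKM with water, 92.7, 65.01, 114, 113 and 144 with low PAC and 110.0, 132, 59.5, 82.5 and 96.3 with high PAC. The lowest mice were high PAC replicate 3 and low PAC replicate 2, and 3 high PAC and 2 low PAC mice lay below the water range. In edgeR, Cyp4v3 had a log2 fold change of -0.71 ± 0.21 with high PAC (unadjusted p = 0.00427, adjusted p = 0.202 from edgeR, exact permutation p = 0.0238) and -0.53 ± 0.21 with low PAC (unadjusted p = 0.0232, adjusted p = 0.976, exact permutation p = 0.0714). Without the single mouse high PAC replicate 3 the first was -0.54 (unadjusted p = 0.0158), and the unadjusted p of the second rose above 0.05, to at most 0.063, when water replicate 4, low PAC replicate 1 or low PAC replicate 2 was left out.

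Cyp4b1, known for the bioactivation of lung toxins, had 50.9, 35.9, 50.04, 54.3 and 51.3 FPKM with water, 36.7, 16.3, 50.9, 37.5 and 49.5 with low PAC and 40.3, 54.1, 21.8, 27.6 and 54.7 with high PAC. Its lowest values were in low PAC replicate 2 and high PAC replicate 3, and its log2 fold changes were -0.38 ± 0.28 with high PAC and -0.41 ± 0.28 with low PAC (unadjusted p = 0.186 and 0.162).

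Cyp4a10 (chr4:115518287-115533649), a fatty acid ω-hydroxylase, was the member with the largest fitted change and among those with the fewest reads. Its FPKM was 0.06, 0.3, 0.14, 0.03 and 0.03 with water, 0.96, 0, 1.51, 0.12 and 0.42 with low PAC and 0.96, 0.76, 0.29, 0.89 and 2.61 with high PAC. These rested on expected counts of 2.00, 10, 5.00, 1.00 and 1.00 with water, 34, 0, 53.98, 4.00 and 15 with low PAC and 33, 27, 10, 32 and 92.98 with high PAC, so that 3 of the water mice had 1 or 2 reads. With high PAC 4 of 5 mice lay above the highest water mouse, and with low PAC 3 did so while low PAC replicate 2 was listed at 0. The log2 fold change was 3.20 ± 0.90 with high PAC (95% interval 1.29 to 5.10, unadjusted p = 0.00264, adjusted p = 0.193 from edgeR, exact permutation p = 0.0159) and 2.37 ± 0.93 with low PAC (unadjusted p = 0.0216, adjusted p = 0.976, exact permutation p = 0.175). The unadjusted p with low PAC was 0.0952 without low PAC replicate 3 and 0.08 in the limma test on log2(FPKM + 0.1), where the difference was 1.25, and the difference on log2(FPKM + 1) was 0.45. DESeq2 gave Cyp4a10 an adjusted p of 0.0359 with high PAC, while the adjusted p over the other alternatives tried on all 15 mice reached 0.333, and 0.642 with the enterocyte marker level described below as a covariate. On the scale of log2(FPKM + 1) the difference with high PAC was 0.84.

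In family 2, Cyp2b10 had the largest lower value. Cyp2b10 (chr7:25897658-25926624, plus strand) had 0.76, 0.61, 1.24, 3.92 and 5.98 FPKM with water, 0.1, 0.19, 0.79, 1.95 and 1.65 with low PAC and 0.65, 1.14, 0.61, 0.22 and 0.47 with high PAC. The water mean was carried by replicates 4 and 5, and the other water mice lay within the high PAC range or just above it. Its log2 fold change was -2.08 ± 0.73 with high PAC (unadjusted p = 0.0114, adjusted p = 0.25 from edgeR, exact permutation p = 0.0635). In the limma test it was -1.48 on log2(FPKM + 0.1), with an unadjusted p of 0.0522, and -0.88 on log2(FPKM + 1). In edgeR without water replicate 5 it was -1.51 (unadjusted p = 0.0534). With low PAC it was -1.47 ± 0.70 (unadjusted p = 0.0526).

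The Cyp2c subfamily on chromosome 19 had a summed FPKM of 109 ± 18.7 with water, 111 ± 23.5 with low PAC and 108 ± 17.9 with high PAC. Cyp2c65, an enzyme of the gut that oxidizes arachidonic acid, had 52.02, 55.1, 47.5, 33.1 and 57.9 FPKM with water, 54.3, 32.2, 49.9, 41.4 and 66.9 with low PAC and 42.6, 44.8, 40.6, 59.95 and 67.3 with high PAC. The groups overlapped widely, and the log2 fold changes were -0.03 ± 0.19 (95% interval -0.44 to 0.37) and -0.06 ± 0.19 (-0.47 to 0.34). Cyp2c55, which forms hydroxyeicosatetraenoic acids, had 19.9, 27.3, 16.9, 7.32 and 27.2 FPKM with water, 25.4, 23.2, 18.6, 18.4 and 32.1 with low PAC and 13.8, 12.1, 21.7, 28.04 and 33.3 with high PAC. Water replicate 4 was the lowest mouse and high PAC replicate 5 the highest, with log2 fold changes of 0.06 ± 0.32 and 0.21 ± 0.32.

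Cyp2c68 was the 1 Cyp2c member with an unadjusted p under 0.05. It had 40.8, 34.7, 38.8, 37.8 and 39.8 FPKM with water, 36.2, 24.4, 35.9, 42.5 and 43.9 with low PAC and 36.9, 37.3, 34.7, 27.8 and 32.2 with high PAC, and 3 high PAC mice lay below the water range. For Cyp2c68, edgeR gave a log2 fold change of -0.28 ± 0.12 with high PAC (unadjusted p = 0.0327, adjusted p = 0.3 from edgeR, exact permutation p = 0.0397) and -0.13 ± 0.12 with low PAC. The unadjusted p with high PAC passed 0.05 when any of 5 single mice was left out, up to 0.087, and was 0.0912 after upper-quartile normalization, 0.0516 with no filter on low counts and 0.166 in the limma test of FPKM. The low members Cyp2c23, Cyp2c66 and Cyp2c67 ranged from 0.42 to 1.63, 0.18 to 2.12 and 0 to 0.24 FPKM.

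Cyp2u1, a fatty acid hydroxylase, had 9.89, 13.1, 13.1, 10.2 and 8.17 FPKM with water, 7.28, 7.01, 8.84, 11.3 and 8.55 with low PAC and 10.3, 8.83, 4.41, 4.68 and 10 with high PAC. High PAC replicates 3 and 4 were the lowest mice, and the other high PAC mice lay within the water range. In the test, Cyp2u1 had a log2 fold change of -0.61 ± 0.23 with high PAC (unadjusted p = 0.0179, adjusted p = 0.268 from edgeR, exact permutation p = 0.119, unadjusted p = 0.0629 without high PAC replicate 3) and -0.40 ± 0.23 with low PAC.

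The Cyp2d, Cyp2j and Cyp2s members did not pass the unadjusted threshold in any comparison. Cyp2d26 had 102, 66.1, 98.9, 79.2 and 90.7 FPKM with water, 84.2, 38.5, 98.7, 108 and 109 with low PAC and 93.1, 94.3, 44.8, 72.2 and 104 with high PAC. Cyp2d22, often compared with the human drug-metabolizing CYP2D6, had 11.6, 9.69, 10.99, 10.8 and 11.3 with water, 9.81, 5.65, 10.9, 10.7 and 12.8 with low PAC and 9.61, 10.8, 6.99, 7.62 and 12.2 with high PAC. Both were lowest in low PAC replicate 2, followed by high PAC replicate 3, and their log2 fold changes with high PAC were -0.20 ± 0.25 and -0.30 ± 0.18. Cyp2d40 and Cyp2d10, not tested, ranged from 0.05 to 0.6 and 0.07 to 0.28 FPKM. Cyp2j6, which forms epoxides of arachidonic acid, had 36.1, 32.8, 36.95, 39.3 and 37.1 FPKM with water, 35.5, 27.5, 32.8, 53.2 and 49.5 with low PAC and 39.3, 37.5, 29.8, 31.2 and 38.3 with high PAC. Cyp2s1, an epithelial enzyme induced through the aryl hydrocarbon receptor, had 35.9, 36.6, 34.6, 40.7 and 36.9 with water, 35.2, 35.9, 42.9, 54.2 and 38.2 with low PAC and 36.2, 41.2, 35.1, 37.2 and 40.7 with high PAC. The highest Cyp2j6 and Cyp2s1 values were both in low PAC replicate 4. The 95% interval of the high PAC log2 fold change was -0.27 to 0.17 for Cyp2s1 and -0.45 to 0.16 for Cyp2j6, and Cyp2j9 ranged from 1.99 to 3.64 FPKM with a log2 fold change of 0.03 ± 0.16.

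Cyp2e1, which oxidizes ethanol and acetaminophen, varied 21.5-fold over the 15 mice. It had 8.26, 1.46, 12.8, 14.5 and 14.01 FPKM with water, 20.9, 6.16, 12.2, 14.8 and 8.27 with low PAC and 11.7, 31.4, 8.03, 4.71 and 21.2 with high PAC, with log2 fold changes of 0.50 ± 0.53 and 0.22 ± 0.53 (unadjusted p = 0.358 and 0.678). The highest mouse was high PAC replicate 2 and the lowest was water replicate 2, and the groups overlapped.

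The remaining single-member subfamilies were low. Cyp2w1, first known from the fetal gut, had 1.47, 1.5, 0.92, 0.78 and 1.00 FPKM with water, 1.79, 0.94, 2.09, 1.71 and 1.15 with low PAC and 1.19, 0.91, 1.22, 0.98 and 1.5 with high PAC. Cyp2r1, a vitamin D 25-hydroxylase, had 0.4, 1.19, 0.48, 0.65 and 0.77 with water, 1.51, 0.69, 0.77, 0.44 and 0.92 with low PAC and 1.03, 0.92, 0.71, 0.98 and 0.58 with high PAC. Cyp2f2, which oxidizes naphthalene in the airways, had 0.1, 0.28, 0.16, 0.51 and 0.29 with water, 0.58, 0.29, 0.13, 0.43 and 0.55 with low PAC and 0.2, 0.55, 0.46, 0.29 and 0.42 with high PAC. In none of these 3 genes did the groups separate, and their unadjusted p-values were 0.8, 0.571 and 0.348 with high PAC (edgeR) and 0.141, 0.426 and 0.272 with low PAC.

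**Figure D3:**
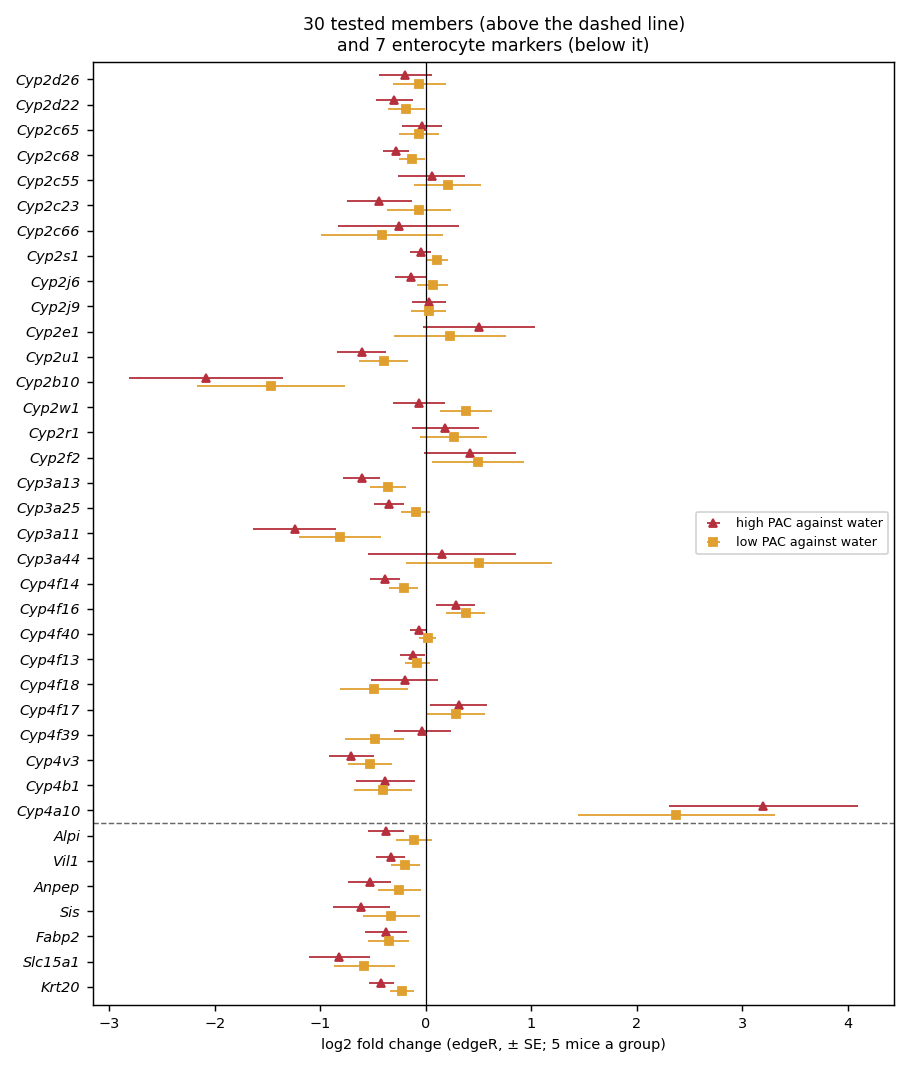
edgeR log2 fold changes against water (± SE, 5 mice a group) of the 30 tested members and, under the dashed line, of 7 enterocyte markers, for high PAC (triangles) and low PAC (squares). Cyp2b10 and Cyp3a11 lie furthest below 0 and Cyp4a10 furthest above, and all 7 enterocyte markers are below 0 in both comparisons.

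With low PAC, 0 of the 30 members had an adjusted p under 0.05 (0.00% of all genes) and the smallest adjusted p was 0.976. At the unadjusted threshold there were 2 members (6.67%), Cyp4v3 lower and Cyp4a10 higher, beside 3.61% of all genes tested (2.21% lower and 1.40% higher). The median log2 fold change of the members was -0.07, and 17 of 30 (56.7%) were below 0, beside 54.5% of all genes, although the median was 0.02 in the limma test of FPKM. The count was 5 without high PAC replicate 3 and low PAC replicate 2, where 5.14% of all genes had such a p. The high and low PAC comparisons share the water mice, so their values for Cyp3a13 (-0.61 and -0.36), Cyp4v3 (-0.71 and -0.53), Cyp3a11 (-1.25 and -0.81) and Cyp2b10 (-2.08 and -1.47) are not independent.

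The PAC fractions themselves differ in polymer size and were compared directly at the same dose and time. Between high PAC and low PAC, 0 of 30 members had an adjusted p under 0.05 (0.00% of all genes), and 0 had an unadjusted p under 0.05, beside 3.89% of all genes tested. The smallest unadjusted p among the members were those of Cyp2w1 (0.0882, log2 fold change -0.44 ± 0.24), Cyp3a25 (0.0887, -0.25 ± 0.14), Cyp4f39 (0.123, 0.45 ± 0.28), Cyp2s1 (0.156, -0.15 ± 0.10) and Cyp3a13 (0.17, -0.25 ± 0.17), with adjusted p = 0.896 for each from edgeR. Differences in these members were not shown, nor was likeness: the 95% interval of the high against low PAC log2 fold change was -0.61 to 0.12 for Cyp3a13, -1.26 to 0.39 for Cyp3a11, -0.62 to 0.27 for Cyp4v3, -2.22 to 0.99 for Cyp2b10 and -0.70 to 2.35 for Cyp4a10. The median over the members was -0.12, and 21 of 30 were below 0, beside 48.6% of all genes. Without high PAC replicate 3 and low PAC replicate 2, 3 members had an unadjusted p under 0.05, beside 1.87% of all genes.

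The enterocyte markers had an adjusted p under 0.05 in 0 of 7 cases. All 7 markers (Alpi, Vil1, Anpep, Sis, Fabp2, Slc15a1 and Krt20) were below 0 in high PAC against water, with a median log2 fold change of -0.42, and 6 of them, all but Fabp2, had an unadjusted p under 0.05. After upper-quartile normalization 3 of the 7 did, with a median of -0.36, and without high PAC replicate 3 there were 4, with a median of -0.30, and there were 3 without water replicate 3 or 4. Their summed FPKM was 9928 to 12808 with water, 7937 to 11549 with low PAC and 5843 to 10782 with high PAC. The mean log2 CPM of the 7 markers, centred over the 15 mice, was 0.071 to 0.454 with water, -0.238 to 0.166 with low PAC and -1.09 to 0.093 with high PAC, and the lowest mouse was high PAC replicate 3. With this level as a covariate, an alternative added after seeing the data, 3 members had an unadjusted p under 0.05 in high PAC against water and 0 of them were lower, beside 8 lower in the model without it. Of all genes, 7.67% had such a p in the model with the covariate (50.5% of these higher) and 14.8% in the model without it (29.5% higher). The log2 fold changes were then -0.01 for Cyp4f14, -0.19 for Cyp3a13, -0.21 for Cyp4v3, -0.95 for Cyp3a11, -1.66 for Cyp2b10 and 4.12 for Cyp4a10. The part of enterocyte content in these results was not tested further.

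**Figure D4:**
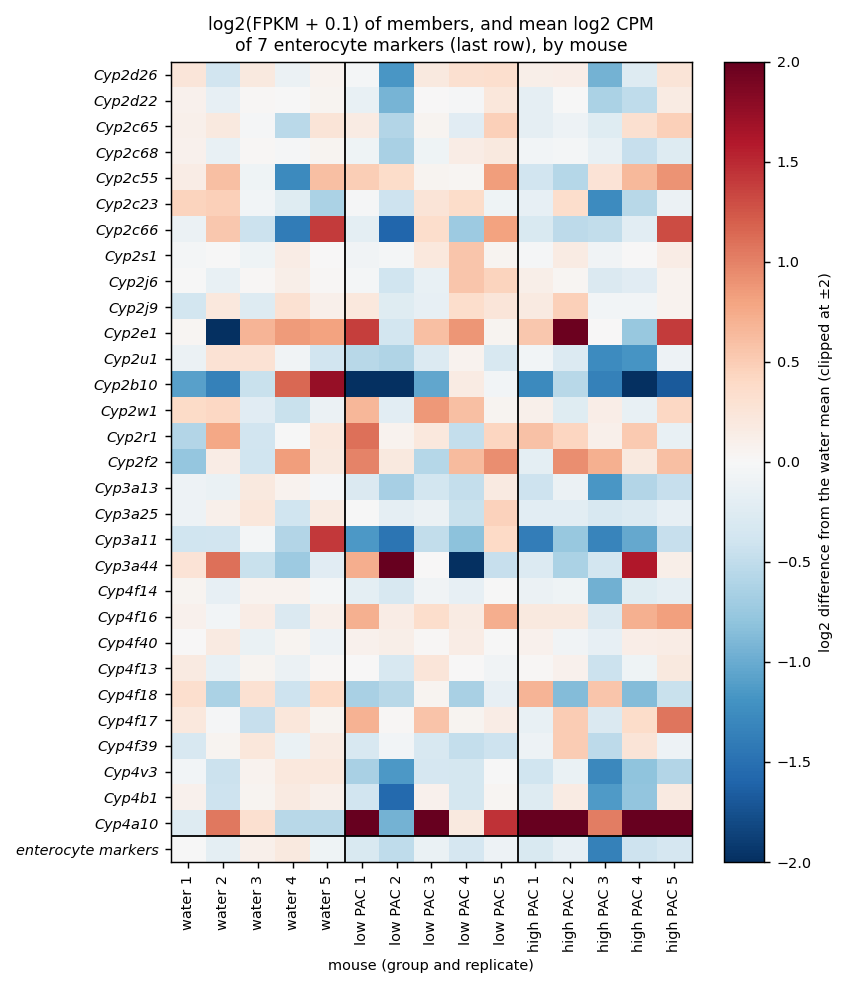
Difference of log2(FPKM + 0.1) from the water mean for the 30 tested members in each mouse (blue lower, red higher, clipped at 2 in either direction), with the mean log2 CPM of 7 enterocyte markers in the last row. Low PAC replicate 2 and high PAC replicate 3 are blue over many members, and the enterocyte row is lowest in high PAC replicate 3.

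Among markers of position along the gut, Gata4, a factor of the proximal small intestine, had 4.58, 1.69, 4.04, 12.5 and 12.7 FPKM with water, 0.48, 0.91, 1.97, 6.23 and 4.19 with low PAC and 0.58, 4.23, 0.75, 0.72 and 0.39 with high PAC (log2 fold change -2.48 ± 0.76, unadjusted p = 0.00522, adjusted p = 0.211 from edgeR with high PAC). Of the 9 tested proximal markers, 5 (Gata4, Rbp2, Apoa4, Plb1 and Creb3l3) were lower with high PAC at an unadjusted p under 0.05, with a list median of -0.52, and the summed FPKM was 882 to 1898 with water, 480.1 to 1384 with low PAC and 782 to 1195 with high PAC. Fabp1 (0.46 ± 0.45) and Slc40a1 (0.38 ± 0.33) were the 2 above 0. Without high PAC replicate 3 there were 4 lower at that p and the median was -0.34, and with the enterocyte level as a covariate there was 1 and the median was -0.26. The 6 distal ileum markers, among them the bile acid binding protein Fabp6, summed to 5251 to 11836 FPKM over the 15 mice, and 0 of them had an unadjusted p under 0.05 in the main model. With high PAC 1 was higher at that p after upper-quartile normalization, in DESeq2 and in the limma test on log2(FPKM + 0.1). The same held without water replicate 1, 2 or 3 or high PAC replicate 1 or 2. Without high PAC replicate 4, 1 was lower. Distal markers were present in the labelled tissue of every mouse, but their level varied. Water replicates 4 and 5, the mice with the most Gata4, had the lowest Fabp6 (4307 and 4196 FPKM) and Slc10a2 (139 and 94.8 FPKM). Slc51a and Slc51b were also lowest in these mice, whereas Fgf15 and Cubn were not. The hepatocyte markers Alb, Ahsg, Fgb and Fga had means of 0.151 FPKM or less and the 7 hepatocyte markers summed to 2.92 to 7.85 FPKM. The 3 that were tested, Ttr, Serpina1c and Apoh, were above 0 in both comparisons with water. Ttr with high PAC (0.65 ± 0.27, unadjusted p = 0.0278, adjusted p = 0.291 from edgeR) and Apoh with low PAC (0.67 ± 0.29, unadjusted p = 0.0337, adjusted p = 0.976) were higher at an unadjusted p under 0.05. The count with high PAC was 0 without water replicate 2, 4 or 5, without high PAC replicate 1 or 3 and with the enterocyte level as a covariate. It was 2 in the limma test on log2(FPKM + 1). The part of gut position in the values of the members was not tested.

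The other marker lists gave few such genes. Among 6 adipocyte, 6 smooth muscle, 5 mesothelium, 5 endothelium, 5 goblet cell, 5 Paneth cell and 8 Peyer's patch B cell markers, 0 had an unadjusted p under 0.05 in any comparison. The adipocyte, smooth muscle and mesothelium markers had 0 members below 0 with high PAC, with median log2 fold changes of 0.61, 0.44 and 0.90, and 0 below 0 with low PAC, with medians of 0.62, 0.32 and 0.59. Single mice moved the high PAC medians: the adipocyte median was 0.24 without high PAC replicate 5, 0.40 without high PAC replicate 2, 0.38 without water replicate 1 and 1.04 without water replicate 4, where 2 adipocyte markers were higher at an unadjusted p under 0.05. Without high PAC replicate 2 or 5 or water replicate 1 or 2, 1 adipocyte marker was below 0. The smooth muscle median was 0.26 without water replicate 1 and 0.24 without water replicate 3, and the mesothelium median was 0.58 without either of these and 1.59 without water replicate 4. In the limma test of log2(FPKM + 0.1), 3 smooth muscle and 2 mesothelium markers were higher with high PAC at an unadjusted p under 0.05. The part of these tissues in the values of the members was not tested. Csf1r, 1 of 6 macrophage markers, was lower with high PAC (-0.29 ± 0.10, unadjusted p = 0.0111), Cx3cr1 was lower in high against low PAC, and the 5 listed pancreatic acinar markers summed to 1.47 to 3.00 FPKM.

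The regulators and partners of the P450 genes were described from lists. Of 18 nuclear receptors and other regulators, 5 were lower with high PAC at an unadjusted p under 0.05 and 0 were higher, beside 10.4% and 4.37% of all genes tested. These shares belong to the main model of high PAC against water, also for the lists below. Of all genes, 16.1% had such a p after upper-quartile normalization (64.8% of these higher), 18.9% in the limma test of FPKM (81.0% higher) and 10.9% without high PAC replicate 3 (48.3% higher). The count of lower regulators was 2 after upper-quartile normalization or without high PAC replicate 3, 1 in the limma test of FPKM or without water replicate 3, 3 without water replicate 1 or 2 and 7 without high PAC replicate 4. With the enterocyte level as a covariate 1 was lower and 1 higher. CAR (Nr1i3) had 2.81, 2.10, 2.66, 4.55 and 6.13 FPKM with water, 1.49, 1.21, 2.11, 3.63 and 2.84 with low PAC and 1.65, 2.82, 1.17, 1.29 and 1.33 with high PAC. Water replicates 4 and 5, the mice with the most Cyp2b10, also had the most Nr1i3, and likewise the most Gata4, Lct and Plb1 and the least Fabp6. A relation of Nr1i3 with Cyp2b10 was not tested. The log2 fold change of Nr1i3 was -1.21 ± 0.34 with high PAC (unadjusted p = 0.0029, adjusted p = 0.193 from edgeR) and -0.75 ± 0.34 with low PAC (unadjusted p = 0.0416). PXR (Nr1i2) was nearly even, at 29.2 to 36.8 FPKM, with a log2 fold change of -0.17 ± 0.07 (unadjusted p = 0.0194), and the other 3 were Ahr (-0.19 ± 0.08), Hnf4a (-0.25 ± 0.11) and Hnf4g (-0.40 ± 0.16). PPARα (Ppara) had a log2 fold change of -0.22 ± 0.11 (unadjusted p = 0.0749).

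Among 11 tested targets of PXR and CAR outside the P450 families, 3 were lower with high PAC at an unadjusted p under 0.05 and 0 were higher. The 3 were the export pumps Abcc2 (-0.57 ± 0.24) and Abcc3 (-0.37 ± 0.14) and the aldose reductase-like Akr1b7 (-0.22 ± 0.10). Without high PAC replicate 3 or in the limma test of FPKM 2 were lower and 2 higher. After upper-quartile normalization or with the enterocyte level as a covariate 1 was lower and 1 higher. Without water replicate 1 or high PAC replicate 4, 1 was lower. Of 14 targets of PPARα, 0 were lower and 0 higher at this threshold. Without water replicate 3 or high PAC replicate 1 or 3, and after upper-quartile normalization, 0 were lower and 1 higher, and 2 were higher in the limma test of FPKM. Of the 14, 1 had a log2 fold change below 0, beside 49.5% of all genes, and the list median was 0.16. Without high PAC replicate 5 there were 6 below 0 with a median of 0.095, and without water replicate 4 there were 4 with a median of 0.08. Of 10 genes of electron transfer and heme supply, Alas1 (-0.22 ± 0.08), which starts heme synthesis, and Cyb5r3 (-0.35 ± 0.16) were lower with high PAC, and Por had -0.19 ± 0.11 (unadjusted p = 0.104). In this list 1 was lower at that p without water replicate 1 or 4 or high PAC replicate 1, 3 or 4. There were 4 lower without high PAC replicate 2 or 5, and 0 after upper-quartile normalization or in the limma test of FPKM. Of 15 tested genes of other fatty acid oxygenation and epoxide hydrolysis, Alox15 (-0.81 ± 0.29) and Hpgd (-0.31 ± 0.13) were lower, and 1 was lower after upper-quartile normalization, in the limma test of FPKM or when 1 of 5 single mice (water replicates 3 and 5 and high PAC replicates 3, 4 and 5) was left out, and 0 were with the enterocyte level as a covariate. None of the genes named from these lists had an adjusted p under 0.05. Of 9 tested P450 genes of other families, Cyp11a1 was higher with high PAC (0.81 ± 0.27, at 0.265 FPKM). With high PAC 2 were higher after upper-quartile normalization and 3 in the limma test of FPKM or without water replicate 2, and 1 was lower without high PAC replicate 2. Cyp51, of cholesterol synthesis, was higher with low PAC (0.39 ± 0.17), where 1.40% of all genes were higher at that p. Between high and low PAC 1 gene of this list was higher.

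Relations between 5 pairs of single genes across the 15 mice were computed on log2(FPKM + 0.1) less the group mean, with p from 100000 permutations within groups and adjusted over the 5 relations. Cyp2e1 followed Adipoq, the adipocyte hormone adiponectin, with Pearson r = 0.81 (permutation p = 0.0001, adjusted p = 0.00025) and Spearman rho = 0.87 (adjusted p = 0.000575), and r was 0.78 when the 2 mice with the most extreme Cyp2e1 were left out. Within groups r was 0.75 with water, 0.90 with low PAC and 0.90 with high PAC, each over 5 mice. Adipoq itself had 11.6, 10.8, 36.1, 63.1 and 28.7 FPKM with water, 76.8, 16.4, 40.9, 56.9 and 44.1 with low PAC and 37.9, 76.2, 39.4, 7.46 and 89.7 with high PAC. Cyp2c65 followed Cyp2c66 with r = 0.89 (permutation p = 2e-05, adjusted p = 0.0001), rho = 0.88 and r = 0.81 without the 2 farthest mice, and these 2 genes are 96.4% identical, so shared reads could enter both.

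The other 3 relations did not reach an adjusted p under 0.05. They were Cyp3a11 with Cyp2b10 (r = 0.59, adjusted permutation p = 0.0635, rho = 0.54), Cyp4f14 with Fabp6 (r = -0.59, 0.0635, rho = -0.48) and Cyp3a11 with Gata4 (r = 0.45, 0.128, rho = 0.43). Without the 2 farthest mice r was 0.31, -0.38 and 0.25 in the same order. Cyp3a11 with Cyp2b10 rested in part on water replicate 5 and low PAC replicate 5, and Cyp4f14 with Fabp6 on high PAC replicate 3 and low PAC replicate 2.

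**Figure D5:**
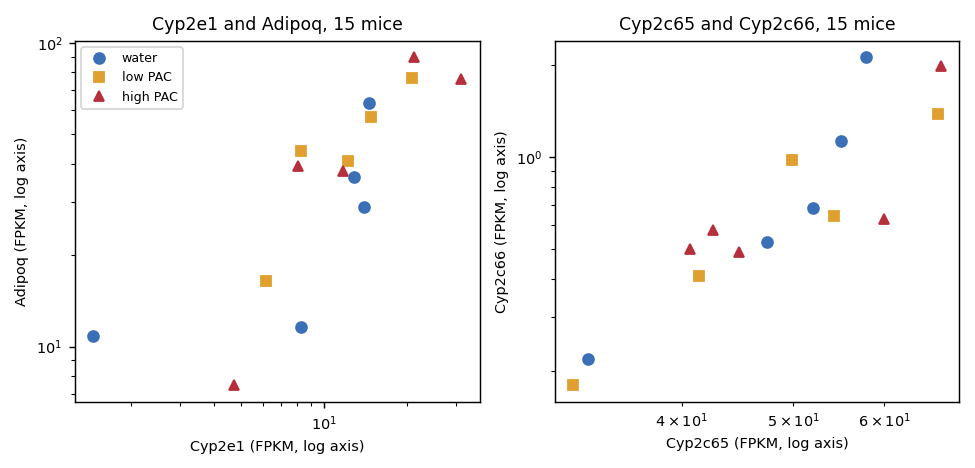
FPKM of Cyp2e1 against Adipoq (left) and of Cyp2c65 against Cyp2c66 (right) in each of the 15 mice on log axes, coloured by group. In both panels mice of all 3 groups lie along 1 rising band, and water replicate 2 is lowest for Cyp2e1 at 1.46 FPKM.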

How the data were processed

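RNA of the ileum of 15 mice, 5 each with water, low PAC and high PAC, was analysed from tables of each mouse. The authors cleaned paired BGISEQ-500 reads with SOAPnuke and mapped them to mm10 with Bowtie2 according to the methods, whereas the submitters' processing notes name HISAT and DESeq2. The counting tool is not given in the sources used here. The authors deposited an expected count per gene, which is an estimate of its fragments and is not normalized, and an FPKM, scaled by gene length and library. Genes missing from a table were given 0. The deposited tables also hold gene lengths, used here as description only.

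The main test was that of edgeR 4.0.16 on rounded expected counts with TMM, filterByExpr and its quasi-likelihood fit (robust option off), run in R 4.3.3, with Benjamini-Hochberg adjustment over 14386 genes. The SE was taken from the test statistic. DESeq2 1.42.0 (without independent filtering) and limma 3.58.1 were alternatives, and transcripts were compared with blastn 2.17.0. The procedure was tested on simulated data. Coordinates are from RefSeq, GRCm38.p6. Per mouse the depth was 15963086 to 17903886 expected counts, so that counting error is small except in members under about 1 FPKM. Given in full were the most abundant member of each subfamily, members of at least 10 FPKM and the 5 smallest unadjusted p of each comparison. The members, gene lists and relations were chosen with earlier results of these data known, and 3 genes of the lists, with the 1 relation that used them, are not reported here.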

Additional observations from a re-analysis of the deposited data

Results flagged for a closer look

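Single mice stood far from the other 4 of their group in 4 of 72 group comparisons of the 24 members given in full, judged by the gap to the nearest mouse over the group's range (limit 0.71), and chance gives about 1 in 20. They were Cyp3a11 in water replicate 5 (57.8 FPKM, ratio 0.849), Cyp4b1 in water replicate 2 (35.9 FPKM, ratio 0.768), Cyp4f14 in high PAC replicate 3 (278 FPKM, ratio 0.772) and Cyp4a10 in high PAC replicate 5 (2.61 FPKM, ratio 0.711).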

How the results depend on the processing

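The 11 differences of members with an unadjusted p under 0.05 against water, 9 with high PAC and 2 with low PAC, kept their direction under every alternative tried. None but that of Cyp4a10 with high PAC in DESeq2 (3.24, adjusted p = 0.0359) reached an adjusted p under 0.05. Members with an adjusted p under 0.05 in high PAC against water numbered 0 in edgeR and limma and 1 in DESeq2. Leaving out single mice gave 7 to 10 members with an unadjusted p under 0.05 in high PAC against water, 1 to 6 in low PAC against water and 0 to 3 in high against low PAC, while 10.5% to 17%, 2.03% to 5.56% and 1.83% to 6.82% of all genes had such a p. The low PAC count was 5 in a model of its 2 groups only, beside 4.46% of all genes. It was 1 without low PAC replicate 1 or 3, 4 without water replicate 1 or low PAC replicate 4, 5 without water replicate 2 and 6 without low PAC replicate 5, and the count in high against low PAC was 3 without low PAC replicate 2. With alternatives added after seeing the data, the counts without high PAC replicate 3 and low PAC replicate 2 together were 8, 5 and 3 in the same order, and with the enterocyte level as a covariate the count in high PAC against water was 3 and the median of the members 0.0439. The causes of these moves were not tested. A minimum of 1 FPKM in place of 0.1 left 23 members.

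The groups carry the same replicate numbers, but same-numbered mice are different animals and their deviations correlated above 0.1 in 3 of 5 pairs of high PAC and water, 2 of 5 of low PAC and water and 0 of 5 of high and low PAC. With the replicate block the counts were 7, 3 and 0, beside 12.8%, 3.27% and 3.2% of all genes, and most mice did not correlate best with their own number. In that model Cyp2b10 and Cyp2c68 with high PAC and Cyp4a10 with low PAC no longer had an unadjusted p under 0.05. Depth limits members under about 1 FPKM, such as Cyp4a10 with 1 to 10 reads per water mouse.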
